A study of Mus musculus with 29 samples.

Results

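Gprc5b, Serpinb1a, Rcan2, Slc13a3, Agmat and Otop1 are 6 genes with no enzyme or carrier of lipid metabolism among them, followed here in mouse liver across a high-fat diet, rosiglitazone and marine phospholipids. They were chosen by their measured difference in log2 ratio between livers with and without rosiglitazone in these same 29 arrays, so every rosiglitazone value of theirs below is a description with no test. They are 6 of 19460 genes tested, and 8 probes carry their names, all 8 of which passed the filter on dim probes. Gprc5b and Otop1 have 2 probes each and the others have 1.

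All livers came from C57BL/6N wild-type male mice that were 3 months old when the diets began and ate them freely for 7 weeks. The control diet (cHF) was rich in fat from corn oil, and all other groups ate it with a supplement. In cHF+R it carried a low dose of rosiglitazone. In cHF+PC about 7% of its lipids were replaced by a concentrate of the omega-3 fatty acids EPA and DHA in the form of phospholipids rich in phosphatidylcholine, and cHF+PC+R had both. There were 7 livers on cHF alone, 6 with rosiglitazone, 8 with phospholipids and 8 with both, each hybridised in Cy5 on an Agilent 2-colour array against a Cy3 pool of all samples. A level below is the log2 ratio of the liver to that pool, so 0 means as much RNA as in the pool, and a difference is between group means of it. The authors left out 1 high-fat and 1 rosiglitazone array before normalization. Whole liver was used, so fewer cells of a type and less RNA per cell cannot be told apart.

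Rosiglitazone is a thiazolidinedione that activates PPARγ, a nuclear receptor best known as the regulator of fat cell genes. PPARγ binds DNA together with the receptor RXR, at pairs of short hexamers, and in the liver of obese mice it is known for raising genes of lipid uptake and droplet storage. The 6 genes have other roles. Gprc5b encodes an orphan receptor of the G protein-coupled class C. Otop1 encodes otopetrin 1, a proton channel known from sour taste cells and the inner ear. Serpinb1a encodes an inhibitor of neutrophil serine proteases that works inside cells, and Rcan2 a protein that binds and inhibits calcineurin, the calcium-dependent phosphatase. Slc13a3 encodes a sodium-coupled carrier of dicarboxylates such as succinate, and Agmat agmatinase, which splits agmatine into putrescine and urea.

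The measurements rest on 60-base probes, and the closing 30 bases of each (31 to 60) are shown because they are what the array reads for each gene. Capitals mark AATAAA, the signal for adding the poly(A) tail, which 3 of the 8 hold in this stretch and 12.6% of all 39429 probes hold anywhere in their length.
Gprc5b, brighter probe: atgagagcccttggcaggtgctttattcat
Gprc5b, other probe: ctgagtgttttAATAAAtctgatatttctc
Serpinb1a: aatgtgctcttccttggcagggtttgttcc
Rcan2: gagttcaaatatatctggtgaatgactgtc
Slc13a3: gcgcaAATAAAgaatgttggtcaatactgg
Agmat: aacccaaacagctcgtgtctccttccttcc
Otop1, brighter probe: ccccatgaatAATAAAaaataataataata
Otop1, other probe: aacctggccatgcccttttccattttctac
In the files' build, mm9, the brighter Gprc5b probe lies at chr7:126115825-126115884 on the minus strand and the other at chr7:126117168-126117227. The Otop1 probes lie at chr5:38695380-38695439 and chr5:38694026-38694085 on the plus strand. Those of Serpinb1a (chr13:32934693-32934752) and Slc13a3 (chr2:165230796-165230855) are on the minus strand, and those of Rcan2 (chr17:44176406-44176465) and Agmat (chr4:141315091-141315150) on the plus strand. Aligned end to end without gaps, no probe of another gene shared more than 35 of the 60 bases with any of them.

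Windows of 250 bases before the annotated starts were taken from RefSeq (GRCm38.p6), which gave 8 windows for 5 of the genes (3 for Rcan2, 2 for Agmat) and none for Serpinb1a. They are shown for the genes with the largest upward and downward difference under rosiglitazone, as the stretches where regulators of a gene can bind. The hexamer AGGTCA, which PPARγ and RXR recognise, was searched on both strands. It was in 0 of the 8 windows and in 14.0% of 32851 windows of all genes. The paired form AGGTCANAGGTCA was in 0 of the 8 and in 0.0335% of all, so the letters of this exact pair are rare in such windows. Capitals in the sequences mark GGGCGG on either strand, the core of the box that Sp1 binds, which 32.7% of all windows hold.
Gprc5b, chr7:118995212-118995461, minus strand: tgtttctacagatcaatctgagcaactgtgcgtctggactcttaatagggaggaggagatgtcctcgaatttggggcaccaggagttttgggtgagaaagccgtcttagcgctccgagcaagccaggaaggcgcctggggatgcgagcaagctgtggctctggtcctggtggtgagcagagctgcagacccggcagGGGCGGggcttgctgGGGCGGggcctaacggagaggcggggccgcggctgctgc
Slc13a3, chr2:165473198-165473447, minus strand: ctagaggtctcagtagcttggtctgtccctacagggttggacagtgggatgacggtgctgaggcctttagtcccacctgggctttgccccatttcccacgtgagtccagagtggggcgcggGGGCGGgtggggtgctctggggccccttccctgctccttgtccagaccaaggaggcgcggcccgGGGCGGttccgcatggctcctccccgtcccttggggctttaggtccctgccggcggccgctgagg
Each of these windows holds 2 GGGCGG, and the hexamer's absence says only that those letters are not in these bases.

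On 28 arrays between 55.0% and 62.5% of spots were well above background in Cy5, while cHF replicate 4 stood apart with 80.8%. Markers of hepatocytes such as Ttr and Apob were above background on all 29 arrays. Arrays give no read depth, so their number limits the precision.

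In cHF+R against cHF, 4 of the 6 genes were higher and 2 lower, and all 6 were past an adjusted p of 0.05 in limma, which is what they were picked for. Of all genes 2.01% were higher and 1.47% lower by the same measure. The order of the 6 by size of the difference was Gprc5b, Otop1, Serpinb1a, Slc13a3, Rcan2 and Agmat. The ranges of cHF and cHF+R did not overlap for 5 of the 6, against 2.48% of all genes, and overlapped for Rcan2. For Otop1 this held by little, near background, and only on its brighter probe. In cHF+PC+R against cHF+PC the ranges did not overlap for Gprc5b and Rcan2, against 0.18% of all genes, and overlapped for the other four.

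Gprc5b, the orphan receptor, was close to background without rosiglitazone. Its log2 ratio ran from -2.21 through a median of -1.71 to -1.68 in cHF, and from -2.25 through -2.10 to -1.80 in cHF+PC. With rosiglitazone it ran from 0.41 through 1.28 to 1.76 in cHF+R, and from -0.48 through 0.43 to 1.14 in cHF+PC+R. All 14 livers with rosiglitazone thus lay above all 15 without it. In raw Cy5 signal the same livers went from 78.6 to 111 in cHF and from 847 to 2004 in cHF+R. The difference was 3.06 ± 0.20 (SE) on the log2 scale in cHF+R against cHF, an 8.31-fold higher ratio and the third largest difference of any gene, and 2.40 ± 0.18 (5.29-fold) in cHF+PC+R against cHF+PC. Its probe was well above background on 6 of 7 cHF and 4 of 8 cHF+PC arrays, and the correction for background adds an offset of 50, so these folds understate a change from so low a level. With Feature Extraction's own processed signals the differences were 4.59 and 4.17.

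The 2 Gprc5b probes followed each other over the 29 livers, with a Pearson r of 0.96 and a Spearman rho of 0.93. The dimmer probe gave 2.42 ± 0.24 in cHF+R against cHF and 1.51 ± 0.22 in cHF+PC+R against cHF+PC. The direction was the same on both probes and the size smaller on the dimmer one.

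**Figure D1:**
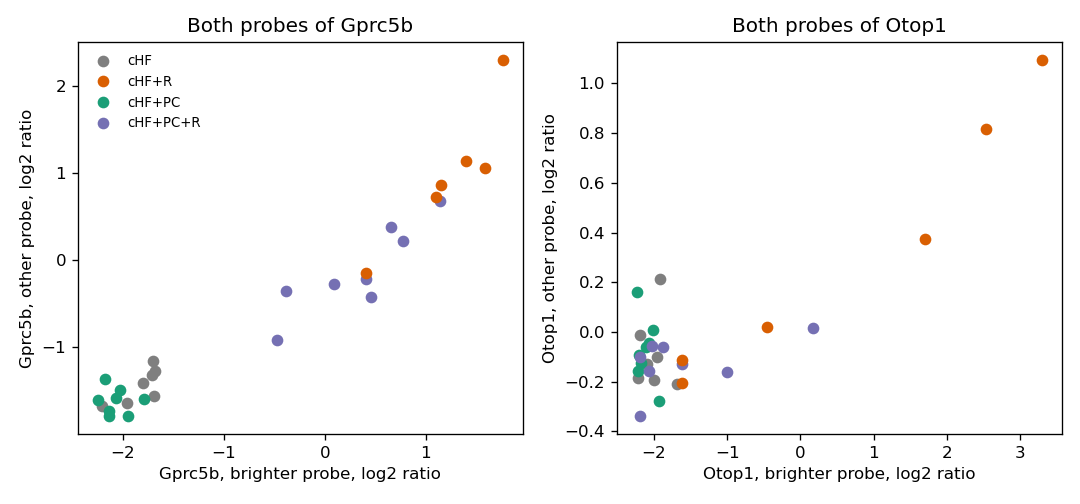
Log2 ratio to the Cy3 pool on the brighter probe (x axis) against the other probe (y axis) of Gprc5b (left) and Otop1 (right), 1 point per liver, coloured by group. The Gprc5b probes run together over the 29 livers (r = 0.96), while the other Otop1 probe leaves its low level only in some cHF+R livers.

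Otop1, the proton channel, was very unequal among livers on the same diet. Its log2 ratio in cHF ran from -2.22 through -1.997 to -1.68, and in cHF+PC from -2.23 through -2.15 to -1.94. In the 6 cHF+R livers it was 3.30, 2.53, 1.70, -0.46, -1.61 and -1.62, for a mean of 0.64 ± 2.15 (SD, n = 6). Replicates 1, 3 and 5 were far above the rest, with a raw Cy5 signal of 5229, 3124 and 1382, and replicates 2, 6 and 4 had 244, 128 and 92.5. In log2 ratio all 6 exceeded every cHF liver, the lowest by little (-1.62 against -1.68). In raw Cy5 replicate 4 lay below cHF replicates 4 (101) and 7 (93.9). On the other probe the 2 groups overlapped, with cHF from -0.21 to 0.21 and cHF+R from -0.21 to 1.09. In cHF+PC+R the ratio ran from -2.19 through -1.96 to 0.17, and replicate 6 (476 raw Cy5) and replicate 3 (193) led.

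The Otop1 difference was 2.65 ± 0.55 (SE) in cHF+R against cHF, on the log2 scale. Every SE rests on 1 spread per gene over all 4 groups. The SD of Otop1 was 0.18 in cHF, 0.11 in cHF+PC, 0.82 in cHF+PC+R and 2.15 in cHF+R. Its SE is thus too narrow with cHF+R and too wide without it. With only the 2 groups compared it was 0.70 in cHF+R against cHF and 0.26 in cHF+PC+R against cHF+PC. The cHF level was measured well above background on 2 of 7 arrays. In cHF+PC the probe was not well above background on any of the 8 arrays, and in cHF+PC+R it was on 3 of 8, so no fold is given between them. The difference of the log2 ratios there was 0.52 ± 0.49, or 0.27 without cHF+PC+R replicate 6, and the ranges overlapped. The other Otop1 probe gave 0.42 ± 0.14 in cHF+R against cHF and -0.05 ± 0.12 in cHF+PC+R against cHF+PC, so the sign of the second difference depends on the probe. Outside cHF+R this other probe was well above background on more arrays, 5 of 7 in cHF, 5 of 8 in cHF+PC and 6 of 8 in cHF+PC+R. Its median raw Cy5 was also higher there (79.1 against 60.3 in cHF), since the brighter probe is so named by both channels together. Over the 6 cHF+R livers the 2 probes followed each other with an r of 0.97, while over all 29 the Spearman rho was 0.29.

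Serpinb1a, the inhibitor of neutrophil serine proteases, was well above background in every liver. Its log2 ratio ran from -1.99 through -1.50 to -0.72 in cHF and from -0.32 through 1.01 to 1.49 in cHF+R. With phospholipids it ran from -2.04 through -1.51 to -0.35 in cHF+PC and from -1.08 through 0.30 to 1.48 in cHF+PC+R. The groups with rosiglitazone were thus high, except that cHF+PC+R replicate 2, at -1.08, lay within the range of cHF+PC. The difference was 2.16 ± 0.34 (4.47-fold) in cHF+R against cHF and 1.67 ± 0.31 (3.19-fold) in cHF+PC+R against cHF+PC. The mouse has the close paralogs Serpinb1b and Serpinb1c; the Serpinb1b probes were well above background on 0 arrays and those of Serpinb1c on at most 8.

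Rcan2, the calcineurin inhibitor, differed least among the 4 higher genes without phospholipids. Its log2 ratio ran from -0.77 through -0.24 to 0.07 in cHF and from -0.18 through 0.41 to 0.90 in cHF+R, where the lowest liver lay inside the cHF range. It ran from -1.04 through -0.64 to -0.17 in cHF+PC and from -0.04 through 0.32 to 0.76 in cHF+PC+R, with no overlap. The difference was 0.71 ± 0.16 in cHF+R against cHF and 0.91 ± 0.14 in cHF+PC+R against cHF+PC. Rcan2 was the only member of the 6 whose difference was larger with phospholipids than without, at 129% of the log2 difference without them, and the gap between the differences was 0.20 ± 0.21.

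Slc13a3, the dicarboxylate carrier, was lower with rosiglitazone. Its log2 ratio ran from 0.22 through 0.56 to 1.01 in cHF and from -1.11 through -0.86 to -0.66 in cHF+R. It ran from -0.30 through 0.29 to 0.44 in cHF+PC and from -0.68 through -0.49 to 0.09 in cHF+PC+R. The first pair of groups lay well apart, and the second overlapped, since cHF+PC+R replicates 7 (0.09) and 5 (-0.29) exceeded the lowest cHF+PC liver (-0.30). The difference was -1.46 ± 0.13 (2.74-fold lower) in cHF+R against cHF and -0.61 ± 0.12 (1.53-fold lower) in cHF+PC+R against cHF+PC.

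Agmat, agmatinase, had by far the brightest probe, and its SD within groups was between 0.06 and 0.15. Its raw Cy5 signal ran from 41995 to 52674 in cHF and from 27720 to 37144 in cHF+R, with 0 saturated spots. The log2 ratio ran from -0.02 through 0.12 to 0.15 in cHF, from -0.57 through -0.43 to -0.39 in cHF+R, from -0.15 through 0.11 to 0.27 in cHF+PC and from -0.34 through -0.23 to -0.07 in cHF+PC+R. The cHF+R livers were thus lower than all others, and cHF+PC+R lay between. The difference was -0.54 ± 0.06 (1.45-fold lower) in cHF+R against cHF and -0.31 ± 0.05 (1.24-fold lower) in cHF+PC+R against cHF+PC.

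**Figure D2:**
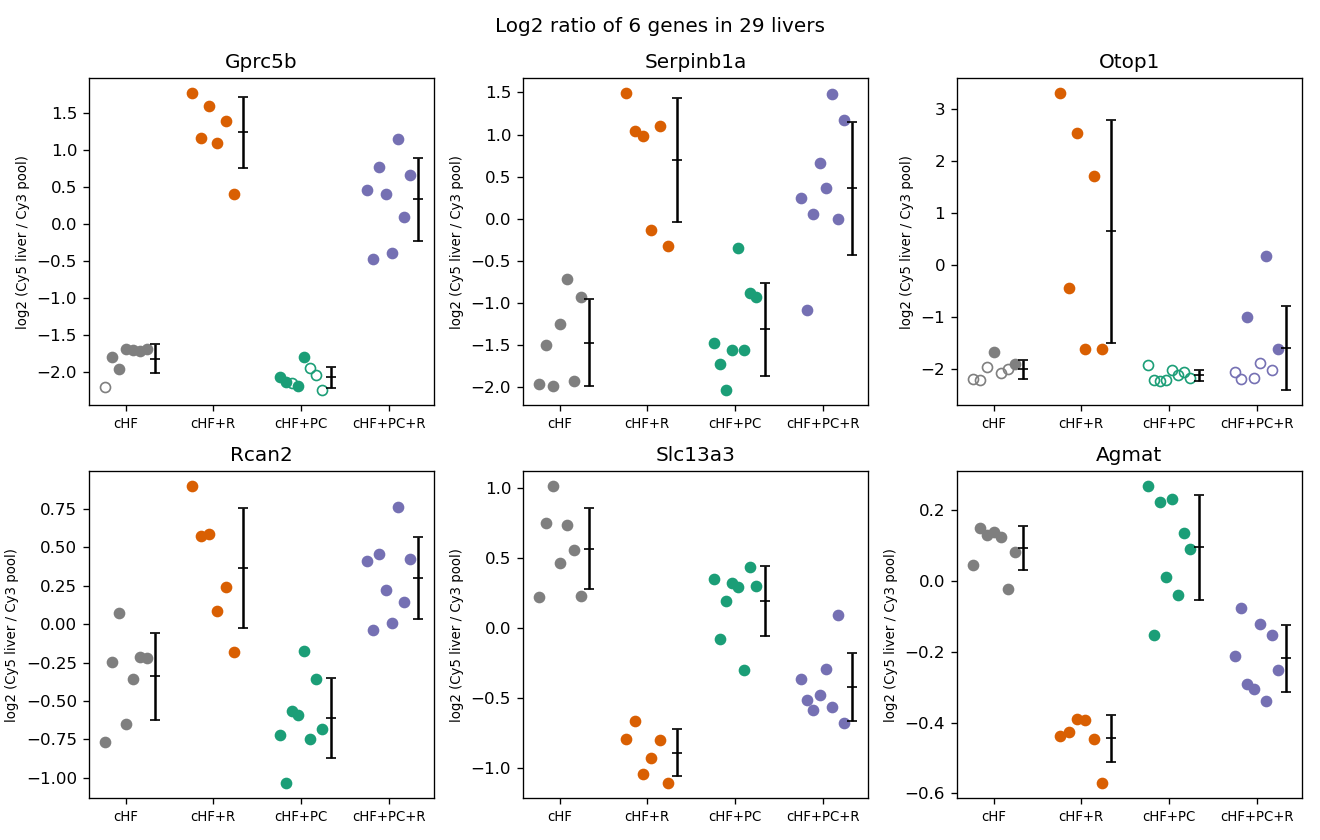
Log2 ratio of Cy5 (liver) to Cy3 (pool) for each gene in every liver by diet group, on the brightest probe. Each point is 1 liver, open points were not well above background in Cy5, and the bars are the mean and SD. The 6 cHF+R livers run from -1.62 to 3.30 for Otop1, and Gprc5b separates all livers with rosiglitazone from all without.

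Slides hold up to 4 arrays, and the differences were also read inside each slide. These are the arrays the genes were picked on, so the counts describe that choice and are no further support. The share of all genes with such counts was not computed. On the 5 slides with both a cHF and a cHF+R array, Gprc5b, Otop1, Serpinb1a and Rcan2 were higher in cHF+R on 5 of 5 and Slc13a3 and Agmat lower on 5 of 5. The Gprc5b difference ran from 2.09 to 3.97 over those slides and that of Rcan2 from 0.04 to 1.66. On the 8 slides with both phospholipid groups, Gprc5b, Serpinb1a and Rcan2 were higher with rosiglitazone on 8 of 8, Otop1 on 7, and Slc13a3 was lower on 8 and Agmat on 7.

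**Figure D3:**
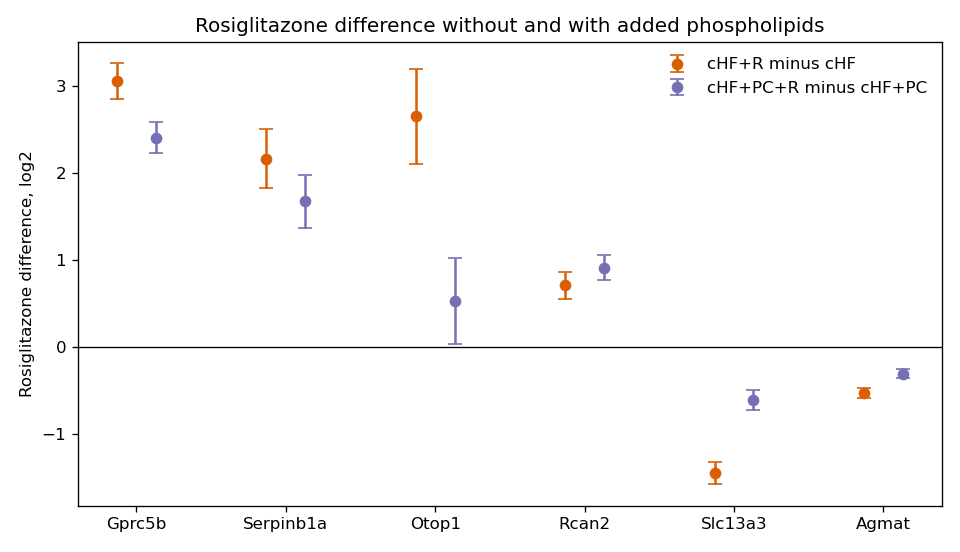
Difference in mean log2 ratio with its standard error for cHF+R minus cHF and cHF+PC+R minus cHF+PC, by gene. With phospholipids the difference is nearer 0 for 5 of the 6 genes, from 2.65 to 0.52 for Otop1, and is 0.91 against 0.71 for Rcan2. Of all genes 679 pass the adjusted threshold in the first comparison and 72 in the second, so this narrowing is not particular to the 6.

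The effect of the phospholipids averaged over both rosiglitazone settings is the comparison closest to independent of how the genes were chosen. With equal spread in all groups its estimate would have a correlation of -0.06 with the difference between cHF+R and cHF. With the measured spread of each group this was -0.94 for Otop1 and -0.53 for Gprc5b, so both are given with no test. The brighter Otop1 probe, which stands for the gene, also passed the filter on dim probes only through cHF+R. For the other four it lay between -0.31 and 0.31, and for Agmat it was -0.07, or -0.35 with the rosiglitazone difference averaged over both diets.

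The averaged difference with against without phospholipids was -0.58 ± 0.14 (SE) on the log2 scale for Gprc5b and -1.18 ± 0.37 for Otop1. Of the 4 genes tested, Agmat rose by 0.11 ± 0.04 (limma, Benjamini-Hochberg adjusted p = 0.036), and Rcan2 (-0.17 ± 0.11, adjusted p = 0.28), Serpinb1a (-0.09 ± 0.23, adjusted p = 0.83) and Slc13a3 (0.05 ± 0.09, adjusted p = 0.77) did not pass. Over all genes 9.75% fell and 10.1% rose. On the 5 slides that hold all 4 groups, the averaged difference was below 0 on 5 of 5 for Gprc5b and Otop1 and above 0 on 5 of 5 for Agmat. It was above 0 on 2 of 5 for Serpinb1a and Rcan2 and on 3 of 5 for Slc13a3. These counts split the same arrays, so they are no further support, and the share over all genes was not computed.

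Agmat was picked for a rosiglitazone difference below 0, and its estimate has a correlation of -0.35 with the averaged one. Picking it thus leans the phospholipid estimate upward. Its difference also lay in the arm that shares the cHF+R livers (0.23 ± 0.06, against 0.0035 ± 0.054 without rosiglitazone). The call for Agmat is not firm. It was lost when any of 9 livers was left out, with an adjusted p of at most 0.062: cHF replicate 6, cHF+R replicates 5 and 6, cHF+PC replicates 1, 3 and 5, and cHF+PC+R replicates 2, 5 and 7, with the difference between 0.10 and 0.11. The Otop1 difference was -0.91 without cHF+R replicate 1, -0.99 without replicate 3 and -1.07 without replicate 5, the 3 livers with the high signal, and its other probe gave -0.22 ± 0.09. The Gprc5b difference stayed between -0.66 and -0.52 with each liver left out, and its other probe gave -0.64 ± 0.16. With the background model fitted on all spots, which failed on some arrays, Gprc5b was at -0.25 and Otop1 at -0.79.

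By arm, these differences lay mostly among livers with rosiglitazone. Both arms share livers with the rosiglitazone comparisons, so they are given as values. In cHF+PC against cHF, Gprc5b was at -0.25 ± 0.19, Otop1 at -0.11 ± 0.51 and Agmat at 0.0035 ± 0.054. In cHF+PC+R against cHF+R, Gprc5b was at -0.90 ± 0.20, Otop1 at -2.24 ± 0.53 (-0.45 ± 0.13 on its other probe) and Agmat at 0.23 ± 0.06. Slc13a3 was at -0.38 ± 0.12 in the arm without rosiglitazone and at 0.47 ± 0.12 in the arm with it, opposite signs that leave an average near 0. Serpinb1a was at 0.16 ± 0.32 and -0.33 ± 0.33, and Rcan2 at -0.27 ± 0.15 and -0.07 ± 0.15. The difference between the arms, the interaction, was 0.84 ± 0.17 for Slc13a3, 0.22 ± 0.08 for Agmat, -0.65 ± 0.27 for Gprc5b and -2.13 ± 0.74 for Otop1 (-0.47 ± 0.19 on its other probe), whose probe was near background in the groups without rosiglitazone. It was -0.49 ± 0.46 for Serpinb1a and 0.20 ± 0.21 for Rcan2. Over all genes limma called 0 interactions, with 1225 (6.29%) at an unadjusted p under 0.05. It called 7 when cHF+PC+R replicate 6 was left out and 4 with array weights.

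**Figure D4:**
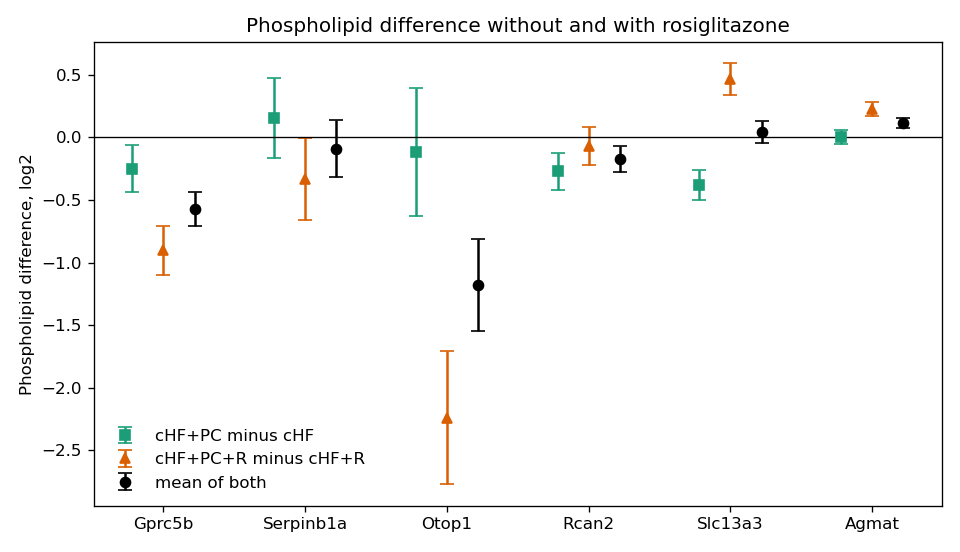
Difference in mean log2 ratio with its standard error on the brightest probe for cHF+PC minus cHF, cHF+PC+R minus cHF+R, and the mean of both, by gene. Otop1 is at -2.24 and Gprc5b at -0.90 with rosiglitazone, against -0.11 and -0.25 without it, and the Slc13a3 arms lie on opposite sides of 0.

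Among livers with rosiglitazone, those of 1 group differed together in the 4 genes that were higher with it, and without rosiglitazone some pairs did not. Over the deviations of the 29 livers from their group means, Gprc5b had a Pearson r of 0.72 with Rcan2, 0.71 with Serpinb1a and 0.69 with Otop1 (Spearman rho 0.63, 0.68 and 0.75). Without the 2 livers farthest from the Gprc5b median these were 0.64, 0.57 and 0.63, and with the slide taken out as well as the group 0.71, 0.80 and 0.68. In the 23 livers outside cHF+R they were 0.65, 0.66 and 0.71. The order of the 6 cHF+R livers was the same in Gprc5b and Otop1, and that of the 8 cHF+PC+R livers the same in Gprc5b and Rcan2 (rho = 1 in each). Without rosiglitazone the rho of Gprc5b and Rcan2 was 0.04 in cHF and 0.21 in cHF+PC, and that of Serpinb1a and Rcan2 -0.29 and 0.50. Rcan2 and Otop1 had 0.21 in each. Some pairs were close there too. Gprc5b and Serpinb1a had 0.82 in cHF and 0.48 in cHF+PC, against 0.83 in cHF+R and 0.62 in cHF+PC+R. Serpinb1a and Otop1 had 0.18 in cHF and 0.81 in cHF+PC, and Gprc5b and Otop1 0.64 and 0.62. Gprc5b and Otop1 signals were near background in these groups. Slc13a3 and Agmat, the genes that were lower, had an r of 0.51 with each other. Over all livers Gprc5b had an r of -0.10 with Slc13a3 and -0.18 with Agmat, but the groups had opposite signs. With Agmat it was 0.74 within the 6 cHF+R livers and -0.93 within the 8 cHF+PC+R livers, and with Slc13a3 0.45 and -0.43. All values share the arrays and the Cy3 pool, and they are descriptions over 15 pairs of genes.

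**Figure D5:**
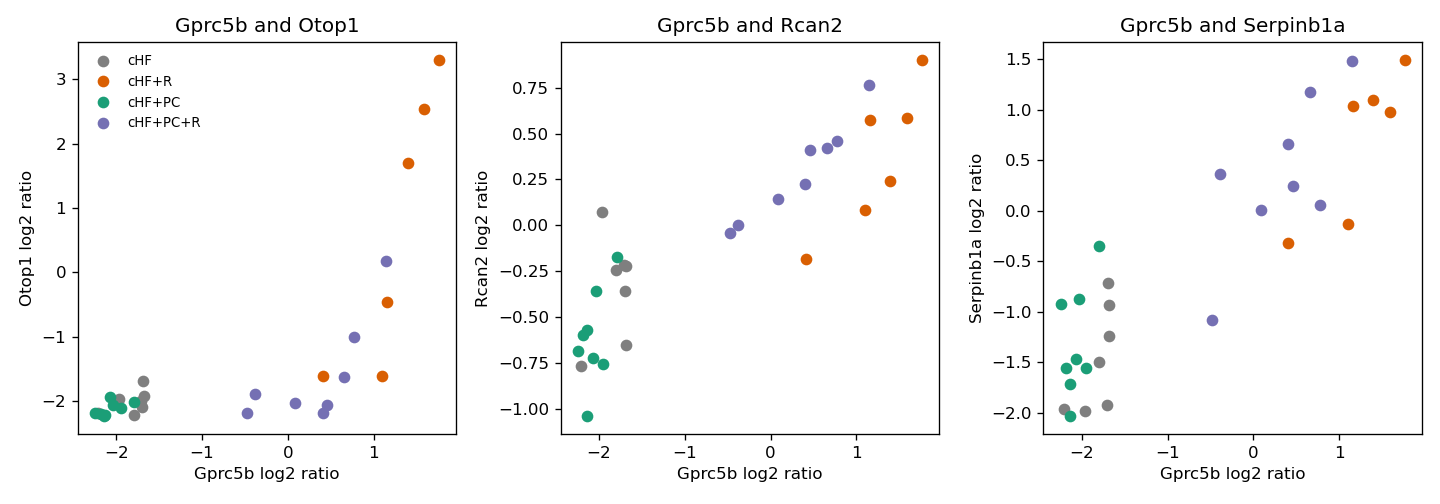
Log2 ratio of Gprc5b (x axis) against those of Otop1, Rcan2 and Serpinb1a (y axes), 1 point per liver, coloured by group. Otop1 stays near its lowest level until Gprc5b is high, and Rcan2 and Serpinb1a climb with Gprc5b among the livers with rosiglitazone. Over all 29 livers the r of deviations from group means is 0.69 for Otop1, 0.72 for Rcan2 and 0.71 for Serpinb1a.

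Genes most like a member were sought among all genes by the Pearson r of the log2 ratio over the livers, and of the deviations from group means. For Gprc5b the nearest included Ttc3 (r = 0.96) and Tmem98 (0.94), and by deviations Fam183b (0.91), LOC100044759 (0.89) and Fam126a (0.87). For Otop1 they were Elovl7 (0.97), an elongase of fatty acids, Adig (0.97), named for adipogenesis, and Slc24a3 (0.96), and by deviations Adig (0.96), Sdcbp2 (0.94) and Elovl7 (0.94). For Serpinb1a they were Tmem98 (0.91), Rad51b (0.91) and Ttc3 (0.90), and by deviations Pmm1 (0.87), Duox1 (0.84) and Proca1 (0.83). Tmem98 and Ttc3 are thus on the lists of both Gprc5b and Serpinb1a. The genes nearest Otop1 had a lower Spearman rho, at 0.60 for Elovl7, 0.72 for Adig and 0.67 for Slc24a3. By deviations it was 0.88 for Adig, 0.85 for Sdcbp2 and 0.78 for Elovl7. Otop1 was near background in most livers, so these r lean on the few livers with a high signal. Elovl7 was well above background on 9 arrays.

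For Rcan2 the nearest were Sh3bgrl2 (0.91), Wwtr1 (0.90) and Cd36 (0.89), the fatty acid transporter, and those by deviations included Lgals1 (0.86) and Themis (0.83). For Slc13a3 they were Ncmap (0.86), Cyp2d10 (0.86) and Dhrs1 (0.84), and by deviations Zdhhc21 (0.67), Lrrk1 (0.66) and Coa5 (0.65). For Agmat they were Cyp2d34 (0.88), Cyp2d10 (0.87) and Car5a (0.86), and by deviations Acy3 (0.80), 1010001B22Rik (0.75) and Zmpste24 (0.74). Cyp2d10, a cytochrome P450 of hepatocytes, was on the lists of both genes that were lower. Each r is over 28 or 29 livers, and those of the log2 ratio hold the group differences that the genes were picked for.

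The members' pattern can be set by value against 12 genes of lipid metabolism, listed because rosiglitazone is known to act on them. Earlier results of these data were known, so their rise describes the list and is no result about lipid genes. All 12 were higher in cHF+R than in cHF, with a median difference of 1.41, against 2.01% of all genes. In cHF+PC+R against cHF+PC 4 of the 12 passed as higher, with a median of 0.53, against 63 of all 19460 genes. In the averaged phospholipid comparison 7 fell and 2 rose, with a median of -0.61, against 9.75% and 10.1% of all genes. Cidec and Plin4, which coat lipid droplets, were at 2.50 ± 0.49 and 2.34 ± 0.39 in cHF+R against cHF. Over deviations from group means Gprc5b had an r of 0.86 with Cidec, 0.85 with Plin4 and 0.83 with Cd36, the highest of the 12. Next came Acaa1b (0.70), Pltp (0.69) and Acadm (0.68). The rest ran down through Fabp4 (0.44), Scd1 (0.42), Ehhadh (0.40), Cyp4a10 (0.38) and Fabp5 (0.27) to Lpl, at -0.45. Otop1 had its highest r with Fabp4 (0.79), the fatty acid binding protein of fat cells and macrophages. Slc13a3 had an r of 0.02 with Cidec, and Agmat of -0.07.

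Relatives of the members were counted from lists of gene families and pathways. For these counts, 15.7% of all genes had an unadjusted p under 0.05 in cHF+R against cHF and 32.3% in the averaged phospholipid comparison, and the shares past the adjusted threshold are those given above (2.01% and 1.47%, 10.1% and 9.75%). Of the 3 other tested GPRC5 receptors, 0 passed in cHF+R against cHF and 0 in the averaged phospholipid comparison by limma, with 1 and 0 at an unadjusted p under 0.05, and their differences in cHF+R ran from -0.33 to 0.03. Otop3, the only other otopetrin tested, was at 0.06 in cHF+R against cHF. Of 16 clade B serpins listed 6 were tested, and among the 5 beside Serpinb1a, Serpinb6b rose by 0.43 ± 0.10 (limma adjusted p = 0.017) and Serpinb1c by 0.28 ± 0.08 (adjusted p = 0.042) in cHF+R, with a median over the 5 of 0.03. Serpinb8 rose with phospholipids by 0.28 ± 0.06 (adjusted p = 0.0015). Over all genes the median difference was 0.0053 in cHF+R against cHF and 0.0034 in the phospholipid comparison. The targets of Serpinb1a, the neutrophil proteases Elane, Prtn3 and Ctsg, had 0 of 3 past the threshold in both comparisons by limma (0 and 1 at an unadjusted p under 0.05), and their differences in cHF+R ran from -0.0022 to 0.04.

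Of 11 calcineurin subunits, regulators and targets beside Rcan2, 0 passed in cHF+R against cHF by limma (2 at an unadjusted p under 0.05). With phospholipids Rcan1, the paralog of Rcan2, fell by 0.62 ± 0.09 (adjusted p = 2.5e-05), Ppp3cc, a catalytic subunit, rose by 0.19 ± 0.04 (adjusted p = 0.0029) and Cabin1, an inhibitor, rose by 0.16 ± 0.03 (adjusted p = 0.00070). The median over the 11 was 0.01 in cHF+R and 0.02 with phospholipids. Of 6 carriers of dicarboxylates and citrate beside Slc13a3, Slc13a5, the citrate carrier of the hepatocyte surface, fell in cHF+R by 0.33 ± 0.10 (adjusted p = 0.049). With phospholipids Slc25a1, the citrate carrier of mitochondria, fell by 0.30 ± 0.05 (adjusted p = 0.00016) and Slc13a4, a sulfate carrier, by 0.65 ± 0.20 (adjusted p = 0.021). The medians over the 6 were 0.10 and -0.16.

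Of 13 genes of agmatine and polyamine metabolism tested beside Agmat, Oaz1, the antizyme that restrains polyamine synthesis, fell by 0.24 ± 0.06 (adjusted p = 0.014) and Smox, spermine oxidase, rose by 0.21 ± 0.06 (adjusted p = 0.046) in cHF+R against cHF. With phospholipids Paox, polyamine oxidase, fell by 0.50 ± 0.08 (adjusted p = 0.00016), Azin2 rose by 0.13 ± 0.05 (adjusted p = 0.044) and Arg1, liver arginase, rose by 0.16 ± 0.06 (adjusted p = 0.047). Odc1, which makes putrescine from ornithine, was at 0.18 in cHF+R and 0.10 with phospholipids and did not pass. The medians over the 13 were 0.04 and 0.05.

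Markers of other cells were read beside these results. In cHF+R against cHF 15.7% of all genes had an unadjusted p under 0.05. Past the adjusted threshold 2.01% were higher and 1.47% lower. Of 6 adipocyte markers, Adipoq and Plin1 were well above background on 2 arrays each, Ucp1 on 1 and Lep on 0. Cfd (adipsin) and Retn were tested, and Cfd rose by 4.54 ± 0.84 (adjusted p = 0.0012) and Retn by 0.72 ± 0.19 (adjusted p = 0.024) in cHF+R. The summed Cy5 level of these 2 ran from 858 to 3805 in cHF, from 7557 to 109660 in cHF+R, from 357 to 3481 in cHF+PC and from 185 to 108280 in cHF+PC+R. Over deviations from group means Gprc5b had an r of 0.70 and 0.86 with the 2 genes, Serpinb1a of 0.71 and 0.80, Otop1 of 0.62 and 0.70, and Rcan2 of 0.57 and 0.71. Slc13a3 had -0.10 and -0.04, and Agmat -0.26 and -0.13. The median r over the hepatocyte list was -0.39 for Gprc5b, -0.48 for Serpinb1a, -0.51 for Otop1 and -0.32 for Rcan2. Over the Kupffer cell and macrophage list it was -0.35, -0.39, -0.13 and -0.38. The part of such cells in the members' values was not tested. Of 5 neutrophil markers tested, 0 passed in cHF+R by limma (0 at an unadjusted p under 0.05). Their sum ran from 3044 to 4794 in cHF and from 3366 to 4912 in cHF+R, and Mpo, Ltf and Ngp were above background on at most 2 arrays. Of 7 Kupffer cell and macrophage markers 0 passed in cHF+R (3 at an unadjusted p under 0.05), with sums from 20049 to 32955 in cHF and from 22613 to 57700 in cHF+R. Of 4 kidney markers, where Slc13a3 is also known, Umod and Kap were above background on at most 2 arrays and Slc12a1 on 0. Slc34a1 was well above background on all 29, at a dim Cy5 level of 76.4 to 124 in cHF and 102 to 120 in cHF+R. Its difference in cHF+R against cHF was 0.01 ± 0.05.

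In the averaged phospholipid comparison, where Gprc5b and Otop1 were lower and Agmat higher, some markers of other cells passed too. Of all genes 10.1% rose and 9.75% fell there, and 32.3% had an unadjusted p under 0.05. So 1 call in a list of 6 does not set that list apart from all genes. Cfd fell by 2.21 ± 0.57 (limma adjusted p = 0.0070), and Retn was at -0.17 ± 0.12. Of 6 stellate cell markers 1 fell, Lrat, which esterifies retinol, by 0.56 ± 0.06 (adjusted p = 4.7e-07). Of 6 endothelial markers Cdh5 fell by 0.15 ± 0.03 (adjusted p = 0.0011). Of 4 markers of pericentral hepatocytes 3 rose, Cyp1a2 by 0.56 ± 0.11, Oat by 0.56 ± 0.09 and Cyp2e1 by 0.54 ± 0.10 (adjusted p at most 0.00067). Of 6 general hepatocyte markers Cps1 rose by 0.50 ± 0.10 and Ttr fell by 0.40 ± 0.08. Of 7 Kupffer cell and macrophage markers and 5 neutrophil markers 0 passed by limma, with 1 of each list at an unadjusted p under 0.05. Of 4 cholangiocyte markers and 5 T and B cell markers 0 passed, with 0 at an unadjusted p under 0.05. The part of any of these cells in the members' values was not tested.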

How the data were processed

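The 29 arrays are of liver RNA, 1 per mouse, and groups and replicate numbers came from the labels. Linear spot intensity and local background of both channels were deposited per array, per the file headers, as extracted with Agilent Feature Extraction 10.5.1.1 (version from the submitters' processing notes). A second deposited table, of log2 values for 25806 spots with a column median of 9.03 throughout, was used as an alternative. After centring, all 29 of its columns matched the Cy5 channel of the right array best. The sources used here do not state its normalization.

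Spots with an uneven local background (14 to 143 per array) were left out, since with them the normexp fit failed on 8 arrays, where corrected negative controls reached 1224 in Cy5 against 60.0 to 74.8 without them. This was chosen after seeing the data. Intensities were then corrected with normexp (offset 50) and loess in limma 3.58.1 (R 4.3.3, data.table for reading). Control and outlier spots were left out, and spots of a probe averaged. Probes with Cy5 well above background on 6 or more arrays and values on 20 or more were kept (23919 of 39429), and the brightest stands for its gene. Names came from accessions, symbols or synonyms of GRCm38.p6, or from the file for 8428 probes.

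A model with 4 group means over all 29 arrays (lmFit, eBayes) gave two-sided tests adjusted by Benjamini-Hochberg over 19460 genes, threshold 0.05, and was tested on simulated data. The fit's p for Gprc5b and Otop1 in the averaged phospholipid comparison is not used, since with their spread it is tied to the values they were chosen by. Marker sums use Cy5 after Aquantile. Members and lists were chosen with earlier results of these data known. Named beside members are the 3 genes with the highest r per member (at least 25 livers) and list genes past the threshold, at most 4 per list; a few genes the rule names are not reported here. The replicate numbers did not pair livers: of 40 same-numbered pairs across groups, 14 had an r over 0.1 between deviations from group means (median 0.02).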

Additional observations from a re-analysis of the deposited data

Results flagged for a closer look

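Each gene was checked in each group for a liver whose log2 ratio lay far from the others, by the gap to its neighbour over the whole range of the group. Of 24 such sets 1 stood out, and chance gives about 1 in 20. It was Agmat in cHF+R replicate 6, at -0.57, with a gap of 0.69 of the range of the 6 livers. Without this liver the Agmat difference in cHF+R against cHF was -0.51.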

How the results depend on the processing

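The averaged phospholipid difference kept its direction for all 6 genes under 14 or 15 alternatives each, Gprc5b being nearest 0 with normexp on all spots (-0.25), an alternative added after seeing the data. Otop1 was at -0.79 with the same, at -1.27 with quantile-normalized Cy5 alone, and at -0.22 with its other probe or the filter at 15 arrays, which leaves that probe. The call for Agmat was lost with processed signals (0.11, adjusted p = 0.062), Cy5 alone (0.066), the deposited table (0.11, adjusted p = 0.057) and no filter (0.11, adjusted p = 0.056). Leaving out each liver gave -0.66 to -0.52 for Gprc5b, -1.40 to -0.91 for Otop1, 0.10 to 0.13 for Agmat, -0.22 to -0.12 for Rcan2, -0.19 to 0.014 for Serpinb1a and 0.0084 to 0.082 for Slc13a3. Serpinb1a turned positive (0.014) without cHF+PC+R replicate 2.

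The Otop1 rosiglitazone difference with phospholipids turned to -0.20 with normexp on all spots and to -0.049 with the other probe or the filter at 15 arrays. That of Gprc5b without them ran from 2.42 (other probe) to 4.59 (processed signals). In cHF+R against cHF 679 genes passed, 421 with median centring, 293 with Cy5 alone and 1108 with array weights, and 458 to 763 with a liver left out. For the averaged phospholipid comparison 3868 passed, 1835 with Cy5 alone and 3178 to 4245 with a liver left out. With the replicate number as a block the averaged difference was -0.58 for Gprc5b, -1.16 for Otop1 and 0.12 for Agmat (adjusted p = 0.037), 3968 genes passed, and no call for the 4 genes tested changed; 11 of 29 livers correlated best with a liver of their own number. Signal over background limits Otop1 and Gprc5b without rosiglitazone, where the level is near the floor.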
